A study of Vigna radiata with 18 samples.

Results

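The regions described here are the ATAC-seq peaks of mung bean (Vigna radiata) leaf that lie in the emptiest megabases of chromosomes 2, 3, 4, 6, 8 and 9. Each peak of the series' consensus list was put by its centre into a bin of 1 Mb counted from the start of its chromosome, the last, incomplete bin of each chromosome was left out, and a bin with fewer than 60 peaks was taken as sparse. This gave 18 sparse bins among 264 complete ones, with 633 peaks of the 50238 in the list (1.26%). The other 246 bins of the same chromosomes held 27278 peaks and serve for comparison, and 190 peaks in the last bins were not used. The members were chosen by the number of peaks per bin, so counts and spacing are given below as a description.

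The study profiled leaves of wild-type plants of the cultivar Weilv 9 grown in hydroponics, in 18 libraries. Seedlings of T1 had 24 h in 100 mM NaCl, then 48 h without it, and then 100 mM NaCl again, whereas T2 met 100 mM NaCl for the first time. Fully expanded first true leaves were harvested 0, 6 and 48 h into the final salt bath, with 3 replicates for each of the 6 groups. The labels also tag the cells as protoplast, although the protocol describes nuclei from frozen leaf. The deposited list pools the series into positions only, with 0 columns for any library, so no salt regime or time is compared and the depth behind a peak is unknown.

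In ATAC-seq the transposase Tn5 inserts sequencing adapters where DNA is free of nucleosomes, and a peak is an interval where such cuts pile up. In plant leaves these intervals mostly mark promoters and nearby regulatory DNA of genes, and also distal elements. Plant chromosomes also carry long stretches rich in transposons and tandem repeats, often around the centromere, where nucleosomes are compact and heavily methylated and where short reads are hard to place uniquely. Positions of genes, repeats and centromeres were not used here, since no sequence or annotation of the build of these peaks was at hand, so no gene is named and no sequence is shown.

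Sparse bins held 1 to 59 peaks, with a median of 39, and the remaining bins 60 to 169, with a median of 111. Sparse bins made up 6.82% of the complete bins and held 2.27% of the peaks. The 95% Wilson interval of the first share, 4.36 to 10.5%, is counting error only. It treats bins as independent, although sparse bins often adjoin, and the share itself follows from the rule. Peaks covered 1.22% of the sparse bins, 219 kb in all, and 4.01% of the rest. The limit of 60 fell inside a continuous range of counts. Just below it, 4 bins with 55 to 59 peaks held 233 of the 633 members, with a median width of 278 bp. Just above it, 3 bins with 60 to 64 peaks held 180 peaks, with a median width of 293 bp. At the other end, 5 bins had fewer than 20 peaks.

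The 18 bins formed 10 runs of neighbouring bins, 5 of them of at least 2 bins and 5 of a single bin. The longest was on chromosome 2 (16000001 to 21000000), where 5 bins in a row held 48, 1, 27, 27 and 59 peaks. Chromosome 4 (14000001 to 16000000) had a run of 2 bins with 13 and 58 peaks. Chromosome 6 had a run of 2 bins (24000001 to 26000000) with 39 and 49 peaks. It also had single sparse bins at 19000001 to 20000000 with 59 peaks and at 22000001 to 23000000 with 51, so that 4 of its bins between 19000001 and 26000000 were sparse. Chromosome 8, the longest by its last peak, had a single run of 2 bins (39000001 to 41000000) with 9 and 15 peaks, 24 in all. Chromosome 3 had single bins at 24000001 to 25000000 with 14 peaks and at 33000001 to 34000000 with 57. Chromosome 9 had a single bin with 21 peaks (17000001 to 18000000) and a run of 2 bins with 39 and 47 (32000001 to 34000000).

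The sparsest bin of a chromosome thus held 1 peak on chromosome 2, 9 on chromosome 8, 13 on chromosome 4, 14 on chromosome 3, 21 on chromosome 9 and 39 on chromosome 6. Of the 10 runs, 8 were centred between 40 and 60% of the way from the first base to the last peak of the chromosome, from 42.4% upwards. The exceptions were the second bin of chromosome 3, at 73.4%, and the run of chromosome 9 at 32000001 to 34000000, at 91.0%.

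The fall in peak number at the border of a run was steep on some chromosomes and gradual on others. On chromosome 8 the bin before the run held 115 peaks, the next bin 9, and the bin after the run 123. On chromosome 2 the bins on either side held 132 and 141. On chromosome 9 the run near the far end stood between bins with 81 and 71 peaks. Of the 20 bins that touch a run, counted once for each run they touch, 11 held at least 90 peaks and 5 held 60 to 79.

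**Figure D1:**
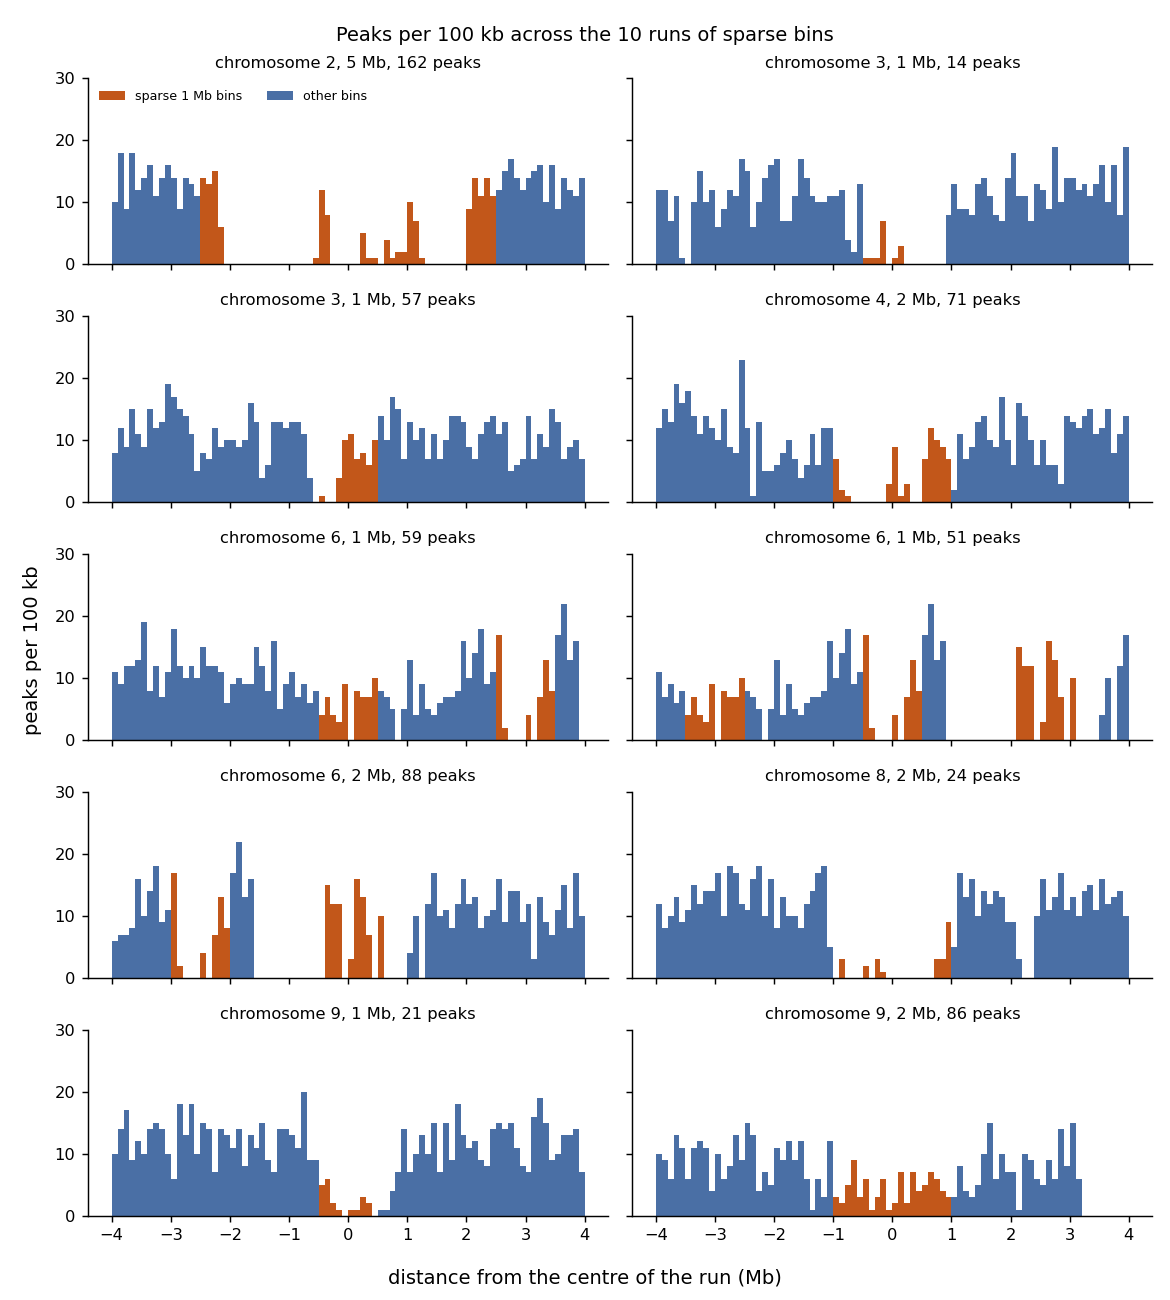
Peaks per 100 kb (vertical axis) against the distance in Mb from the centre of each of the 10 runs of sparse bins; windows in sparse 1 Mb bins are orange and those in other bins blue, and windows past the last peak of the chromosome are not drawn. On chromosomes 2 and 8 the orange part is mostly empty between blocks of peaks, whereas the run of chromosome 9 with 86 peaks has 0 empty windows on the fixed grid.

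The sparse bins differed in how much of their length was bare. At least 5 of the 10 windows of 100 kb were empty in 9 of the 18 bins, and 2 bins had 0 empty windows. Of the 180 windows of all sparse bins, 74 (41.1%) held 0 peaks, 73 held 1 to 7 and 33 held 8 or more. The limit of 8 is the lower quartile of windows in the other bins, where the median was 11. Those 33 windows, 18.3% of the sparse windows, carried 371 of the 633 members (58.6%). In the other bins 25 of 2460 windows were empty (1.02%) and 2010 (81.7%) held 8 or more.

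A window with 8 peaks or more was found in 12 of the 18 sparse bins, and in 6 there was none. Of the 8 bins with fewer than 30 peaks, 5 had none. Some of the fuller bins held blocks of ordinary density beside blank DNA. On chromosome 2 the 10 windows of the first sparse bin held 14, 13, 15, 6, 0, 0, 0, 0, 0 and 0 peaks. Its last sparse bin was the mirror image, with 0 in its first 5 windows and 9, 14, 11, 14 and 11 in the rest. On chromosome 6 the bin with 39 peaks had all of them in 3 windows, with 15, 12 and 12. In the bins with 60 peaks or more the quartiles were 8 and 14 peaks per window, a range that takes in most of the filled windows of these 3 bins. On chromosome 8, by contrast, the bin with 9 peaks held them as 3, 2, 3 and 1 in separate windows, with 6 windows empty.

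The run of chromosome 9 near the far end differed in arrangement. Its bin at 33000001 to 34000000 held 2, 7, 2, 7, 4, 5, 7, 6, 4 and 3 peaks in its 10 windows, and the bin before it 3, 2, 5, 9, 3, 6, 1, 3, 6 and 1. Neither had an empty window on this fixed grid, and together they had 1 window with 8 peaks or more. Spans of at least 100 kb without a peak, which can straddle 2 windows, still filled 81.5 and 330 kb of these bins. The variance of the window counts divided by their mean, which rises as peaks stand together but also falls where a bin holds very few peaks, was 0.853 and 1.68 in these bins. It was 10.3 in the sparse bin of chromosome 6 with 39 peaks and 9.16 in the first of chromosome 2. The median of this ratio was 3.67 over the 18 sparse bins and 1.14 over the 246 others. The highest ratio of all was found among the 246 others, above the 10.3 that was highest in the sparse bins. Blocks of peaks beside blank DNA were also seen outside the sparse bins. On chromosome 6 the bin just before the run of 2 bins, with 68 peaks, held 17, 22, 13 and 16 in its first windows and 0 in the rest. Low ratios were not limited to bins without empty windows. The bin with 59 peaks on chromosome 6 had 1.60 with 1 empty window, the chromosome 9 bin with 21 peaks 1.95 with 2, and the chromosome 8 bin with 9 peaks 1.84 with 6.

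**Figure D2:**
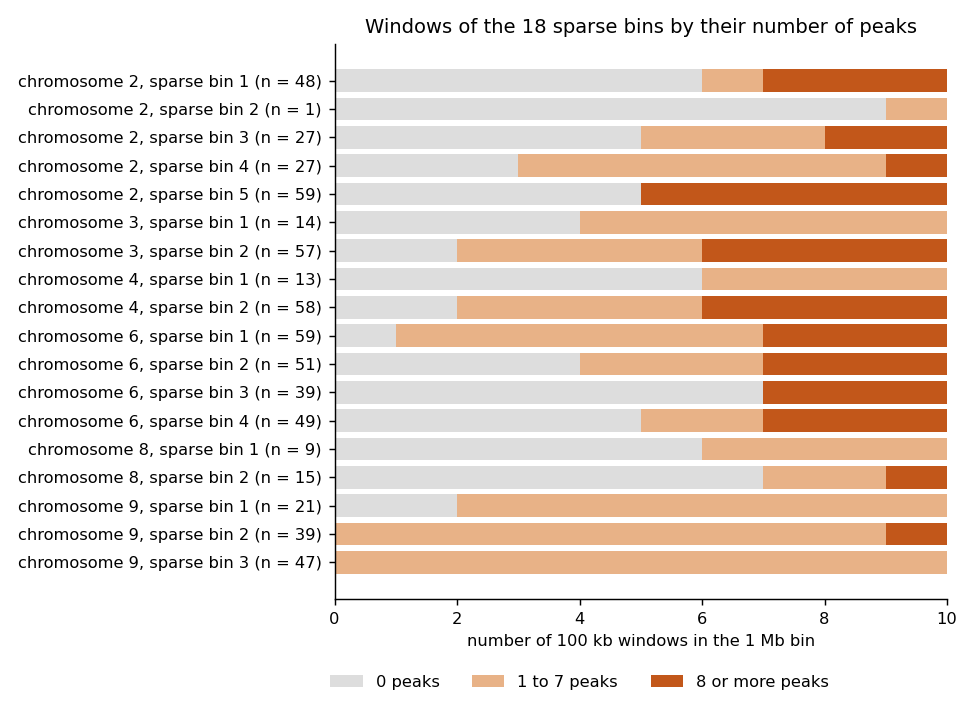
Each bar is 1 of the 18 sparse bins, named by chromosome with its number of peaks (n), and shows how many of its 10 windows of 100 kb (horizontal axis) held 0 peaks (grey), 1 to 7 (light orange) or 8 or more (dark orange). The bin of chromosome 6 with 39 peaks has 7 empty windows and 3 of 8 or more, and the last 2 bins of chromosome 9 have 0 empty windows.

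Long spans without any peak took up most of the length of the sparse bins. The 6 chromosomes had 63 spans of at least 100 kb between neighbouring peaks, 16.5 Mb in all. Of these, 34 reached into sparse bins and 29 lay whole outside them. The sparse bins contained 10.6 Mb of this length (64.4%), which was 58.96% of their own length, against 2.39% of the length of the other bins. Outside these spans the sparse bins had 85.7 peaks per Mb and the others 114. The spans that met sparse bins had a median length of 187 kb and reached 1662 kb, while the longest that did not was 348 kb. These contrasts follow in part from the rule, since a long span lowers the number of peaks in its bin.

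Every one of the 18 sparse bins met at least 1 such span, but for different lengths. Of the 246 other bins 33 met one, a difference that the lower number of peaks per bin enters. The spans filled 81.5 kb of the bin of chromosome 9 at 33000001 to 34000000 and 330 kb of the bin before it. They filled 129 kb of the chromosome 6 bin with 59 peaks and 999 kb of the chromosome 2 bin with 1 peak. On chromosome 9 the run near the far end still had 54.1 peaks per Mb once its spans were taken out, and its single bin near the middle 55.3. On chromosome 6 the run of 2 bins had 145 per Mb outside its spans. On chromosome 2 the run of 5 bins had 108 per Mb outside its spans. Taking out length without peaks raises the density of what is left by construction. In the bin with 1 peak it gave 680 per Mb, so these values do not rank the runs against other bins.

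Between such spans the members formed islands. A total of 24 islands, each a stretch of peaks with a span of at least 100 kb on both sides, lay whole inside a run and held 229 members (36.2%). Of these islands 6 were a single peak, 6 held 2 to 4 peaks and 12 held 5 or more. On chromosome 6, 39 peaks stood within 266 kb (24606082 to 24872255), with 1216 kb of empty DNA before them and 196 kb after. Of the empty DNA before them, 609521 bp lay in the bin before the run, which held 68 peaks and was not sparse. A neighbouring island of 39 peaks covered 290 kb (25067831 to 25357959). Their densities were 14.7 and 13.4 peaks per 100 kb, above the mean of 11.1 over the bins with 60 or more. On chromosome 2, 21 peaks stood within 193 kb (17998531 to 18191815) between spans of 1662 and 508 kb, with 10.9 peaks per 100 kb. The first of these 21 is the only member in the bin with 1 peak, because its neighbours fall past the border of the bin. A further island of chromosome 2 packed 5 peaks into 9.78 kb (18699760 to 18709534), between spans of 508 and 171 kb. The islands with 5 or more peaks had a median density of 8.69 per 100 kb, and 5 of the 12 lay above the mean of the denser bins. Islands of few peaks reach high densities by their short length, so these values do not rank them.

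Beside the spans that met sparse bins peaks were fewer than is usual in the other bins, though not scarce at every span. This follows in part from the rule, since these flanks lie mostly in sparse bins. The 100 kb on either side of the 34 spans that met sparse bins held a median of 5 peaks. Of these 68 flanking windows, 28 (41.2%) held 8 or more. In the 100 kb windows of the other bins the median was 11, and 81.7% held 8 or more. A flanking window always holds the peak that bounds the span, so it cannot be empty. Both sides of the 1216 kb span of chromosome 6 were full, with 17 peaks before it and 15 after. The 1662 kb span of chromosome 2 had 16 before and 13 after. The 820 kb span of chromosome 8 had 1 peak before it and 4 after.

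Lone peaks in the middle of bare DNA were few in number but a larger share of the members than of other peaks. At least 50 kb free of peaks on both sides was found for 8 of the 633 members (1.26%) and for 8 of the 27278 peaks of the other bins (0.0293%), a difference that the lower number of peaks per bin enters. The member farthest from its neighbours on both sides was a peak of 432 bp on chromosome 3 (33039251 to 33039682), with 185 kb before it and 301 kb after. A peak of 134 bp on chromosome 8 (39894239 to 39894372) had 120 kb before it and 820 kb after, and one of 179 bp on chromosome 4 (14249771 to 14249949) had 130 and 739 kb. These 8 members were 128 to 673 bp wide, with a median of 198 bp. They were chosen for their gaps after these had been seen.

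Members had close neighbours in a share not far from that elsewhere. A neighbour within 1 kb was found for 146 of the 633 members (23.1%) and for 25.1% of the peaks in the other bins. By chromosome the share among members was 24.1% on chromosome 2, 21.1% on chromosome 3, 22.5% on chromosome 4, 28.8% on chromosome 6, 20.8% on chromosome 8 and 13.1% on chromosome 9. It was below that of the denser bins on 5 of 6 chromosomes, and above it on chromosome 6 (25.2% in the denser bins). The mean difference was -3.49 percentage points ± 3.98 (SD, n = 6 chromosomes), smaller than its own spread, and it turned to 2.28 when the limit was 50 peaks per bin. The median distance to the nearest peak was 3.06 kb for members and 2.70 kb for the rest, although the number of peaks per megabase differed by 3.15-fold. Stretches of 3 or more peaks less than 1 kb apart took in 15 members (2.37%), in 5 stretches, and 5.82% of the other peaks.

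Width was not used to choose the members. Members had a median width of 274 bp, with quartiles of 191 and 430 bp, and the peaks of the other bins 294 bp, with quartiles of 203 and 452 bp. The distributions overlapped over nearly their whole range. The narrowest peak was 105 bp in both, 5% of peaks lay below 134 and 133 bp, and 95% below 775 and 819 bp. Widths of 1 kb or more were seen in 11 members (1.74%) and in 671 of the others (2.46%). Isolated members, with no neighbour within 1 kb, had a median of 275 bp and those with one 270.5 bp, so width hardly changed with a close neighbour. In bins with 1 to 29 peaks the median was 238 bp (127 peaks), in those with 30 to 59 it was 279 bp (506 peaks), and in those with 60 to 79 it was 282 bp.

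The direction of the width difference was not the same on all chromosomes. The median of members was lower on chromosome 3 (225 bp against 296 bp), chromosome 8 (223.5 against 294 bp), chromosome 2 (259.5 against 298 bp) and chromosome 6 (277.5 against 293 bp). On chromosome 4 it was 298 against 299 bp. On chromosome 9 members were wider, with 336 against 282 bp. The mean difference was -23.8 bp ± 47.5 (SD, n = 6 chromosomes), smaller than its spread over chromosomes. It was -39.3 bp without chromosome 9, -14.3 bp without chromosome 3 and -14.4 bp without chromosome 8, which has only 24 members. No test was made, since the members were chosen with results of this list known and chromosomes are parts of 1 list and not replicate plants.

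**Figure D3:**
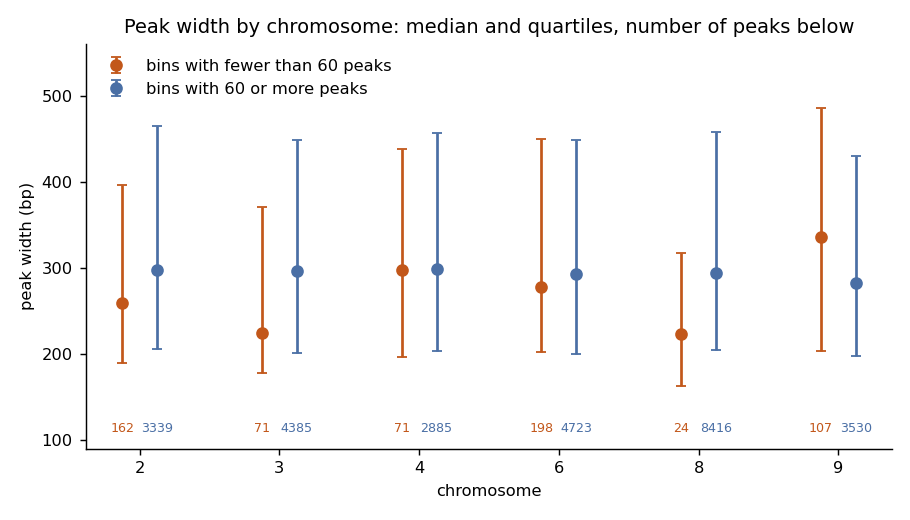
Peak width in bp (vertical axis) on each of the 6 chromosomes, as the median (point) and quartiles (bars), for sparse bins (orange) and bins with 60 or more peaks (blue), with the number of peaks printed below. Denser bins have medians of 282 to 299 bp, and those of members lie between 223.5 bp (chromosome 8) and 336 bp (chromosome 9).

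Single bins showed the same spread. Over the 17 sparse bins with more than 1 peak, the median width was lowest, at 185 bp, in the chromosome 8 bin with 9 peaks and highest, at 377 bp, in the chromosome 9 bin with 39. The 3 sparse bins of chromosome 9 had medians of 366, 377 and 322 bp. All 3 lay above the 282 bp of the denser bins there, both in the bin near the middle and in the run near the far end. The far run of chromosome 9 was also the only one with 0 empty windows on the fixed grid among the 10 runs. Whether arrangement and width go together was not tested.

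Pooled over chromosomes, peaks in the bins next to sparse ones had a median width close to that of the members. The number of peaks was far higher there, as the rule requires of bins that are not sparse. In bins that touch a sparse bin the median was 98 peaks per Mb and the median width 270.5 bp. At a distance of 2 bins the values were 113 peaks and 275 bp, and at 3 bins 119 peaks and 278 bp. Width was 288 bp at 4 to 5 bins, 296 bp at 6 to 10 bins and 301 bp farther away. The direction of the rise in number from sparse to touching bins is fixed by the rule, so it is not a result. The pooled median width rose step by step from the touching bins outwards. Within chromosomes only 2 zones, 1 to 3 bins and 6 bins or more, were compared. On 5 of 6 chromosomes the median width at 1 to 3 bins was below that at 6 bins or more, by 21 to 38 bp, and on chromosome 3 it was 297 against 296 bp. The mean difference was -25.3 bp ± 14.6 (SD, n = 6 chromosomes). The mean number of peaks per Mb was 109 at 1 to 3 bins and 112 at 6 bins or more. By chromosome, members were less like the peaks at 1 to 3 bins than in the pool. Their median was lower on chromosomes 3 (225 against 297 bp), 8 (223.5 against 266 bp) and 2 (259.5 against 267 bp). It was higher on chromosomes 9 (336 against 269 bp), 4 (298 against 269 bp) and 6 (277.5 against 273 bp).

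Distance from a sparse bin and distance from the middle of the chromosome largely coincide, since 8 of 10 runs lay near the middle, and their parts cannot be told apart over the whole set. The run of chromosome 9 at 91.0% of its span is one exception. The bins on its 2 sides had a median width of 264.5 bp, below the 282 bp of the denser bins of chromosome 9. The other exception, the chromosome 3 bin at 73.4%, had 312 bp on its 2 sides, above 296 bp. Over the 10 runs the peaks in the touching bins were narrower than the denser bins of their chromosome at 7, equal at 1 and wider at 2.

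**Figure D4:**
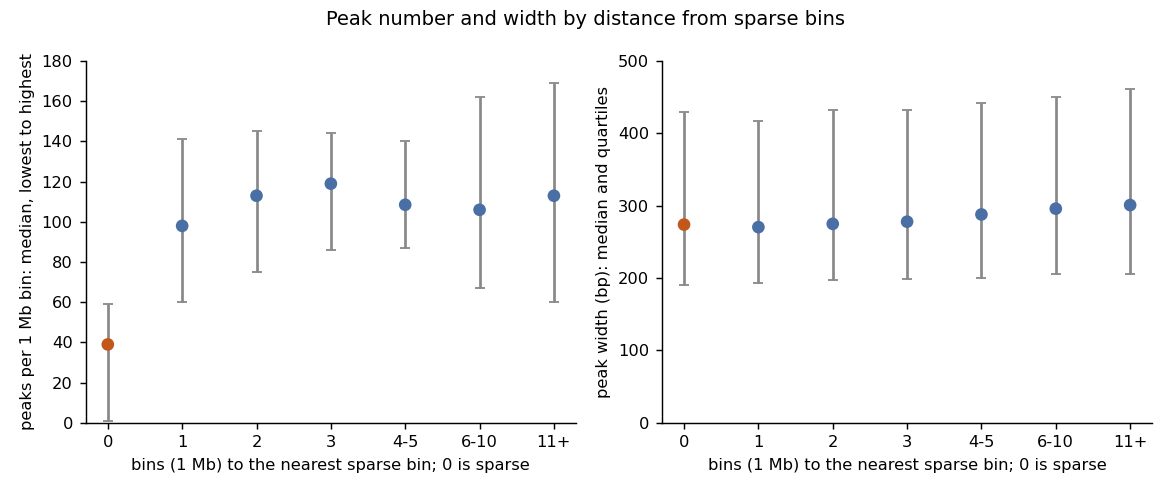
Left, peaks per 1 Mb bin (median, with bars from the lowest to the highest bin); right, peak width in bp (median and quartiles); both against the number of bins to the nearest sparse bin on the same chromosome, with sparse bins at 0 (orange). Peak number rises from 39 to 98 in the touching bins, a direction fixed by the rule. Median width, pooled over chromosomes, stays between 270.5 and 278 bp up to 3 bins away.

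Pooled over chromosomes, members were also narrower than other peaks when both had the same crowding around them, except in 1 class. The classes were not compared within chromosomes. Among peaks with 8 to 11 peaks in their own window of 100 kb, members had a median of 263 bp (179 peaks) and the others 299 bp. With 12 or more, the values were 261 bp (192 peaks) and 292 bp. In windows with 1 to 3 peaks members had 267.5 bp (80 peaks) and the others 288.5 bp (154 peaks). Chromosome 9 held 30 of these 80 members, and without it the medians were 213.5 and 306 bp. In windows with 4 to 7 peaks the order was turned, with 318.5 bp (182 peaks) for members and 286 bp for the others. Chromosome 9 held 68 of these 182 members, and without it their median was 317.5 bp against 291 bp.

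The 5 widest members were 1941 bp on chromosome 3 (24348106 to 24350046), 1935 bp on chromosome 9 (17009343 to 17011277), 1836 bp on chromosome 9 (33363249 to 33365084), 1662 bp on chromosome 4 (15901500 to 15903161) and 1199 bp on chromosome 6 (25565597 to 25566795). The first stood in a bin of 14 peaks whose median width was 208 bp, with 49.6 kb free before it and 4.59 kb after. The second had 51.8 kb free after it. The third had a neighbour at 235 bp. The widest peak in the denser bins of these chromosomes was 3711 bp.

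By the same rule the other 5 chromosomes had 40 sparse bins among 230 (17.4%), with 1382 peaks. Their peaks had a median width of 271 bp, against 291 bp in the denser bins there, and 37.8% of the windows of 100 kb in their sparse bins were empty. On these measures the sparse bins of the 6 chromosomes were close to them in width (274 bp) and in empty windows (41.1%).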

How the data were processed

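Per the labels' protocols, nuclei from frozen leaf were cut with Tn5 and sequenced as read pairs of 150 bp. The submitters' processing notes name MACS3 3.0.3, a peak caller, beside Bowtie2, bedtools 2.28.0, fastp 1.0.1, SAMtools 1.22.1, featureCounts 2.1.1, deepTools 3.5.6 and edgeR 4.0 as used by the authors. What each did, the threshold for a peak, the fate of multiply mapped reads, how libraries were merged and the build are not given in the sources. Discarding multiply mapped reads can remove peaks in repeats, and joining libraries can widen peaks, but neither was tested here. The file the authors deposited gives a chromosome, a start counted from 0 and an end in bp, with no header; positions are printed counted from 1. A gene table of assembly VC1973A was not joined, because peaks lay past its last gene on 11 of 11 chromosomes.

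Peaks were binned with pandas 2.3.3 and numpy 2.4.6 under Python 3.11.15; SciPy 1.17.1 gave the Wilson interval. A bin was complete when it ended before the end of the chromosome's last peak. The steps recovered sparse bins planted in simulated data far below the limit, which checks the code and not the choice of limit. The members and lists were chosen with earlier results of these data known. Width, near neighbours, empty windows and the alternatives (limit, bin size, bin start, peak set, chromosomes) were fixed at the start; spans, islands, distances, crowding and lone peaks were added later. The regions named by rule were the runs of at least 2 bins, the sparsest bin of each chromosome and the 5 widest members; others were named after their values were seen. The planned comparison of regimes and times needs values per library and was not made.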

Additional observations from a re-analysis of the deposited data

How the results depend on the processing

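Of 69 alternatives over 5 results, 63 moved the value by less than its spread (SD over chromosomes, a 95% Wilson interval, or 1.5 times for the count of members), 5 moved it more and 1 reversed it. For width (-23.8 bp, SD 47.5) and near neighbours (-3.49 percentage points, SD 3.98) the spread was larger than the difference itself. Few alternatives could exceed it, and most share most of their peaks, so this tally says little about how firm those 2 differences are. The number of members, 633, was 349 with a limit of 50 peaks per bin and 1146 with a limit of 70, and it was 2015 when all 11 chromosomes were taken with the limit of 60. The share of empty windows of 100 kb was 33.1% with fewer than 70 peaks, against 41.1%. The share of bins that were sparse was 11.7% over all 11 chromosomes, against 6.82%. The difference in near neighbours reversed from -3.49 to 2.28 percentage points with fewer than 50 peaks; the cause was not tested. The width difference stayed below 0 under all 14 alternatives tried for it, among them -12.1 bp with bins of 2 Mb, -11.1 bp without the narrowest 25% of peaks and -40.8 bp with bins shifted by 500 kb, with SDs over chromosomes of at least 28.6 bp. With bins of 2 Mb only 5 chromosomes had sparse bins, against 6 for the main value, so these 2 means cover unlike sets. Leaving out each chromosome in turn gave 435 to 609 members, 5.65 to 8.47% sparse bins, 35.4 to 48% empty windows, width differences of -39.3 to -14.3 bp and neighbour differences of -4.90 to -2.46 percentage points. No paired analysis was possible because the peaks carry no values per library, and leaving out replicates was not possible either. Read depth is unknown, so a bare span cannot be told apart from one in which reads could not be placed.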
